A study of Rattus norvegicus with 6 samples.

Results

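The genes described here are 10 transcription factors of the islet cell lineage, Neurod1, Nkx6-1, Isl1, Pax6, Pax4, Rfx6, Rfx3, Foxa2, St18 and Myt1. Each was found by its symbol in the array's annotation and had 1 probe set, so the 10 probe sets stand for 10 of the 14506 genes measured. RNA came from pancreatic cells of male Wistar rats, enriched for beta cells by sorting on light scatter and autofluorescence and described by the series as primary cultured. The day 20 group held 3 preparations from suckling pups at postnatal day 20, and the adult group 3 preparations from young adults of 2 months (250 to 280 g). No allele or drug was named for either group, and the number of animals behind a preparation is not given in the sources used here. Signals are given on the log2 scale, normalized by the authors with RMA, so a difference of 1 is a 2-fold change, and the number of arrays, 3 per age, limits the precision.

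Endocrine cells of the pancreas arise from progenitors through a relay of transcription factors, and many of these stay on in the mature islet, where they keep cell identity and the expression of secretory genes. Neurod1 is a basic helix-loop-helix activator that binds E-boxes, among them those of the insulin genes. Nkx6-1, Isl1, Pax6 and Pax4 carry homeodomains. In the rodent islet Nkx6-1 is largely a beta cell factor, while Isl1, Pax6 and Neurod1 are made by most endocrine cell types. Rfx6 and Rfx3 bind X-boxes, Foxa2 is a forkhead factor that opens chromatin, and St18 and Myt1 are zinc finger proteins of the Myt family.

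Of the 10 factors, 5 were higher in adult than at day 20 and 0 were lower in limma's test (8 and 0 at an unadjusted p under 0.05). Rfx6 rose 3.01-fold, Neurod1 2.58-fold, St18 2.42-fold and Nkx6-1 2.05-fold, and Foxa2 rose 1.26-fold with the least spread between arrays of an age among the 5. Pax6, Myt1, Rfx3, Isl1 and Pax4 did not pass this test, which ran across all genes with a Benjamini-Hochberg adjusted p under 0.05. In the same test 22.7% of all genes passed, 11.8% as higher and 10.9% as lower in adult. The median log2 difference was 0.70 over the 10 factors and 0.012 over all genes. For 7 of the 10 every adult array lay above every day 20 array, as it did for 20.9% of all genes (39.6% of all genes had no overlap in either direction).

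**Figure D1:**
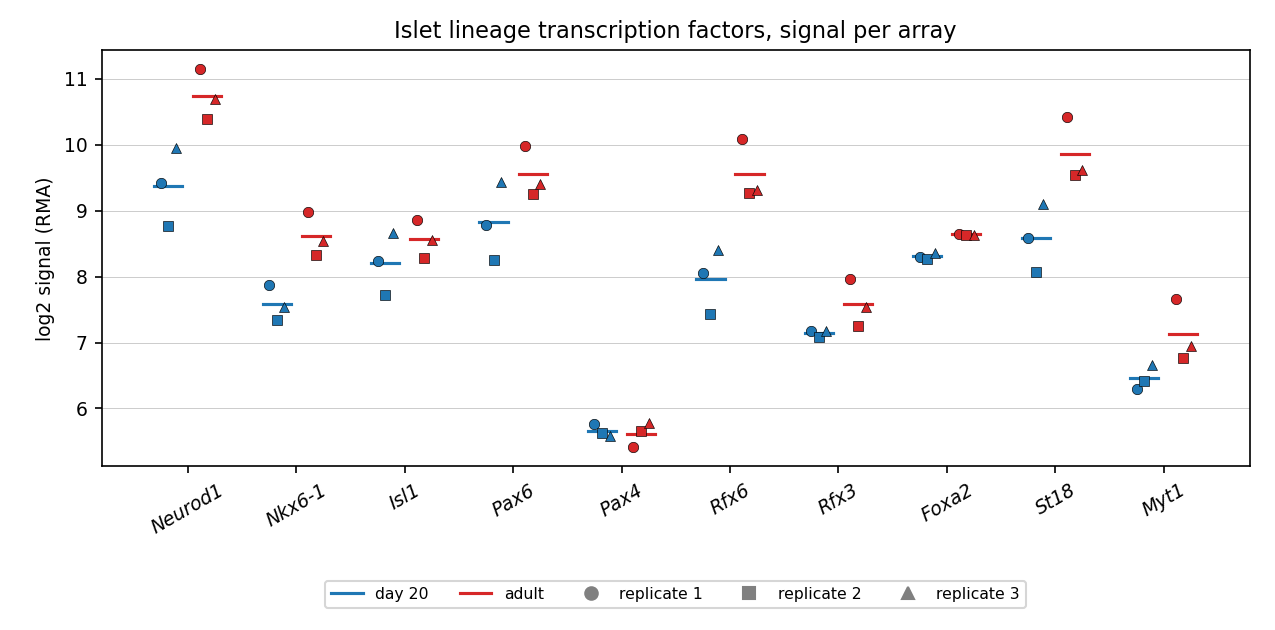
The log2 signal of each of the 10 factors is plotted for the 3 day 20 arrays (blue) and the 3 adult arrays (red), with a bar at each mean and a symbol shape for each replicate number. The adult points of Neurod1, Nkx6-1, Rfx6, Rfx3, Foxa2, St18 and Myt1 all lie above those of day 20, while those of Isl1, Pax6 and Pax4 overlap with them.

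The defining markers of beta cells were bright at both ages, with a mean log2 signal over 7 of them of 12.11 to 12.58 in adult and 10.73 to 11.41 at day 20, and 5 of the 7 were higher in adult. Counts of markers here and of listed genes below are of those measured, for beta cells 7 of 11 listed. The preparations were not beta cells alone, and the 2 ages differed in other markers too. The 12 pan-endocrine genes, of secretory granules and prohormone processing, had a mean log2 signal of 10.55 to 11.24 over the adult and 9.39 to 10.40 over the day 20 arrays, with 9 of 12 higher in adult, a count of 4 without adult replicate 1, day 20 replicate 1 or day 20 replicate 2 and of 3 (1 lower) without adult replicate 1 and day 20 replicate 2 together. Of 7 markers of delta, PP and epsilon cells 5 were lower in adult, and their mean was 7.59 to 7.78 in adult against 8.40 to 8.99 at day 20. All 10 endothelial and all 10 measured cell division genes were lower in adult, at mean signals of 5.53 to 5.58 against 6.82 to 7.53 and of 5.94 to 6.01 against 7.86 to 8.38. Acinar markers were bright at both ages (means of 13.33 to 13.44 in adult and 13.31 to 13.55 at day 20), with 2 of 15 lower. The 2 were Ptf1a and Nr5a2, with age means of 9.98 to 10.81. Ctrb1 and Cel, the brightest, read 14.38 to 14.71, at or near the array maxima of 14.47 to 14.71, where a change can hardly show. Whether the acinar part differed with age can therefore not be read from these counts. Of 6 alpha cell markers 1 was higher and 1 lower, of 8 duct markers 1 and 2, and 5 of 11 fibroblast (3 without day 20 replicate 1) and 2 of 9 leukocyte markers were lower, while 0 of 4 Schwann cell markers passed in limma (0 also at an unadjusted p under 0.05). The part of these markers in the changes below was not tested, and only the pan-endocrine mean was set beside age. In RNA from a mixed preparation, fewer cells of a type and less RNA per cell cannot be told apart.

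Neurod1 (probe set 10846685), the E-box binding activator, had log2 signals of 11.14, 10.40 and 10.70 in adult replicates 1 to 3 and of 9.41, 8.76 and 9.96 in day 20 replicates 1 to 3. The lowest adult array stood above the highest day 20 array, and the spread was wider at day 20. The means of 10.75 ± 0.38 and 9.38 ± 0.60 (SD, n = 3) differed by 1.37 (SE 0.28, 95% interval 0.72 to 2.01, adjusted p = 0.00946). The call held with any 1 of the 6 arrays left out (highest adjusted p = 0.0381), with differences from 1.06 to 1.66. In size of rise Neurod1 came 84th among all genes measured.

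Nkx6-1 (probe set 10771356), the homeodomain repressor that guards beta cell identity, read 8.98, 8.33 and 8.54 in the adult and 7.87, 7.33 and 7.54 in the day 20 arrays. The ages did not overlap, and each age spread over a similar range. Means of 8.62 ± 0.33 and 7.58 ± 0.27 (n = 3) gave a difference of 1.04 (SE 0.18, 95% interval 0.62 to 1.45, adjusted p = 0.0047). Its call too held in each of the 6 leave-out fits (highest adjusted p = 0.0201).

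The promoters of 8 of the 10 factors were found in RefSeq's table for the rat assembly GRCr8, and the windows searched were the 250 bases before the annotated start. The 3 windows of factors that rose, and that of Rfx3, which holds an RFX half-site, are printed 5′ to 3′ on the gene's strand. Capitals mark E-boxes (CANNTG, which reads alike on both strands), homeodomain cores (TAAT, or ATTA for the other strand) and RFX half-sites (GTTGCC, or GGCAAC for the other strand).
Neurod1 (chr3:84770455-84770704, minus strand): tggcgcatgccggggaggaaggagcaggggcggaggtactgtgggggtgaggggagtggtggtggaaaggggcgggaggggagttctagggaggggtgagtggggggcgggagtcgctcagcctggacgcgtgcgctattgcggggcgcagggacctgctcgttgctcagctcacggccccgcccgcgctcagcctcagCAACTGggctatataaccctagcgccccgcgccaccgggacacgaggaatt
Nkx6-1 (chr14:8273988-8274237, plus strand): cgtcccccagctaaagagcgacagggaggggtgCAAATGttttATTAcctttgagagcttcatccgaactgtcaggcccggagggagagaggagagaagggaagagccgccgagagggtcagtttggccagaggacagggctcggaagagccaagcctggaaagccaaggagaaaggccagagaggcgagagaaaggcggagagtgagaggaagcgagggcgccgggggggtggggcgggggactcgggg
Foxa2 (chr3:155927509-155927758, minus strand): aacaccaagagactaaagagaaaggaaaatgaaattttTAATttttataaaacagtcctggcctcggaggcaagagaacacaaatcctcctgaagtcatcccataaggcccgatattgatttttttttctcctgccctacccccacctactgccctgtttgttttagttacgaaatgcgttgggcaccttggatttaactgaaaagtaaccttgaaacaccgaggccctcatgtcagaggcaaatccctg
Rfx3 (chr1:235122423-235122672, minus strand): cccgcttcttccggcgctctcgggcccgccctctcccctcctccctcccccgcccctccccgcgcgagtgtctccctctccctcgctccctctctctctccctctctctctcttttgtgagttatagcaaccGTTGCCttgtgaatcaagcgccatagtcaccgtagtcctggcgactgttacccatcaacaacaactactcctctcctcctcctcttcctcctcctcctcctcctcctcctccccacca
The E-box of Neurod1 began 51 bases before the start, and Nkx6-1 had an E-box at 217 and a homeodomain core at 207 bases. An E-box stood in 4 of the 8 windows (Neurod1, Nkx6-1, Isl1 and Myt1), against 65.5% of all 33360 distinct windows of this length. A homeodomain core stood in 3 of 8 (Nkx6-1, Isl1 and Foxa2), against 56.9%. RFX half-sites were found in 2 of 8, Rfx3 and Isl1, against 9.90%, and the one of Rfx3 began 118 bases before its start. A forkhead motif (TGTTTAC or GTAAACA) was in 0 of 8, against 3.21%, and the Myt motif AAGTT or AACTT in 2 of 8, Myt1 and Pax4, against 35.8%. None of these motifs overlapped another in these windows. A match describes letters and not binding.

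Rfx6 (probe set 10830105), which directs endocrine differentiation and supports insulin secretion in adult beta cells, had the largest difference of the 10. Its adult arrays read 10.08, 9.27 and 9.32, and its day 20 arrays 8.06, 7.44 and 8.41. The groups were set well apart, with adult replicate 1 highest and day 20 replicate 2 lowest. The means were 9.56 ± 0.46 and 7.97 ± 0.49 (n = 3), a difference of 1.59 (SE 0.27, 95% interval 0.97 to 2.20, adjusted p = 0.00405). It passed in all 6 leave-out fits (highest adjusted p = 0.0194), with differences of 1.32 to 1.81, and was 37th in size of rise among all genes.

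Rfx3 (probe set 10729525), a relative of Rfx6 known for the control of cilia genes, read 7.96, 7.25 and 7.54 in adult and 7.17, 7.09 and 7.17 at day 20. The adult arrays were all higher, but adult replicate 2 was only just above the closely grouped day 20 arrays. The difference of 0.44 (SE 0.16, 95% interval 0.072 to 0.80) did not pass (adjusted p = 0.0861). Without adult replicate 2 it was 0.61 and passed (adjusted p = 0.0217), and without adult replicate 1 it was 0.25 and did not (95% interval -0.010 to 0.50, adjusted p = 0.176).

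Whether the 2 RFX members changed unequally was asked from their difference within each array, where only the change with age can be read. Rfx6 minus Rfx3 was 2.12, 2.02 and 1.78 in adult and 0.89, 0.35 and 1.23 at day 20. The change of 1.15 left no overlap, with an exact two-sided permutation p of 0.10, the smallest that 3 against 3 arrays allow, so the design cannot pass the threshold (adjusted p = 0.163 over 13 such differences). Among the other measured RFX genes, Rfx7 had a difference of 0.61 (adjusted p = 0.0319), a call lost without any 1 of the 3 adult arrays or without day 20 replicate 1 (adjusted p up to 0.0988). Rfx1, Rfx2 and Rfx5 did not pass, with differences of -0.20, -0.028 and 0.19. Rfxank, a subunit of the complex that Rfx5 forms on MHC class II promoters, rose by 0.52 (adjusted p = 0.00342), and its partner Rfxap was lower by 0.32 (log2 difference -0.32, adjusted p = 0.0304), the latter passing in only 1 leave-out fit, that without day 20 replicate 3.

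Foxa2 (probe set 10850521), the forkhead factor, had the narrowest spread, at 8.65, 8.64 and 8.63 in adult and 8.30, 8.27 and 8.35 at day 20. Arrays of an age were nearly alike, and the ages stood apart. The difference of 0.33 (SE 0.080, 95% interval 0.15 to 0.51, adjusted p = 0.017) was the smallest among the 5 that passed. Between 0.31 and 0.36 in all leave-out fits, it lost its call in 3 of the 6, without adult replicate 2 (adjusted p = 0.0512), adult replicate 3 (0.0554) or day 20 replicate 2 (0.064). The other family members did not pass, Foxa1 with a difference of 0.10 and Foxa3 with -0.076.

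St18 (probe set 10875154), the zinc finger factor, read 10.42, 9.54 and 9.62 in adult and 8.59, 8.06 and 9.11 at day 20. No day 20 array reached the adult ones, and day 20 replicate 3 came nearest. With means of 9.86 ± 0.49 and 8.59 ± 0.52 (n = 3), it differed by 1.27 (SE 0.29, 95% interval 0.62 to 1.92, adjusted p = 0.0135). The call was lost without day 20 replicate 1 (adjusted p = 0.0524), where the difference was still 1.27.

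Its relative Myt1 (probe set 10843100), which acts in endocrine differentiation, read 7.66, 6.76 and 6.94 in adult and 6.30, 6.42 and 6.66 at day 20. Adult replicate 1 stood well above the other arrays, and the remaining adult values were close to day 20 replicate 3. The difference of 0.66 (SE 0.21, 95% interval 0.18 to 1.15, adjusted p = 0.0534) missed the threshold narrowly. It passed after a second quantile normalization (adjusted p = 0.0363), after median centring (0.0347), without genes of low signal (0.0441), with array weights (0.0474) and without adult replicate 2 (0.0282), and without adult replicate 1 it was 0.39. St18 minus Myt1 within arrays rose by 0.61, from 2.29, 1.64 and 2.45 at day 20 to 2.76, 2.77 and 2.68 in adult (exact two-sided permutation p = 0.10, the smallest possible, adjusted p = 0.163). The brain relative Myt1l had a difference of 0.36 that did not pass (adjusted p = 0.134).

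Pax6 (probe set 10838259), a paired and homeodomain factor of all endocrine cell types, read 9.99, 9.26 and 9.41 in adult and 8.79, 8.25 and 9.43 at day 20. Day 20 replicate 3 lay above adult replicates 2 and 3, so the groups overlapped. The difference of 0.73 (SE 0.28, 95% interval 0.084 to 1.37) did not pass (adjusted p = 0.104). Without day 20 replicate 3 it was 1.03 and passed (adjusted p = 0.0167), and without day 20 replicate 2 it was 0.44 and did not (adjusted p = 0.298). With adult replicate 1 and day 20 replicate 2 both left out it was 0.22 (adjusted p = 0.55).

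Isl1 (probe set 10821486), the LIM homeodomain factor, showed the same order of arrays, with 8.87, 8.29 and 8.55 in adult and 8.24, 7.73 and 8.66 at day 20. Again day 20 replicate 3 stood above adult replicates 2 and 3. Its difference was 0.36 (SE 0.23, 95% interval -0.15 to 0.87, adjusted p = 0.311), and with 1 array left out it ranged from 0.12 without day 20 replicate 2 (adjusted p = 0.746) to 0.58 without day 20 replicate 3 (adjusted p = 0.0722), passing in 0 of the 6 fits.

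Pax4 (probe set 10861410), which steers progenitors towards beta and delta cells and is weakly expressed in adult islets, had the lowest readings, 5.41, 5.66 and 5.78 in adult and 5.76, 5.63 and 5.58 at day 20. These values lie between the arrays' first quartile (4.91 to 4.94) and median (6.35 to 6.39), and with no detection calls they are not shown to be above background. The groups overlapped, and the difference of -0.040 had a 95% interval of -0.29 to 0.21 (adjusted p = 0.856). Of 20 other genes of the members' families 17 were measured, and Rfx7 was the 1 that passed. Neurod2, Neurod4 and Neurod6, Nkx6-2 and Nkx6-3, Isl2, and Pax2, Pax3, Pax8 and Pax9 did not pass, with differences from -0.095 for Pax8 to 0.16 for Nkx6-3.

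**Figure D2:**
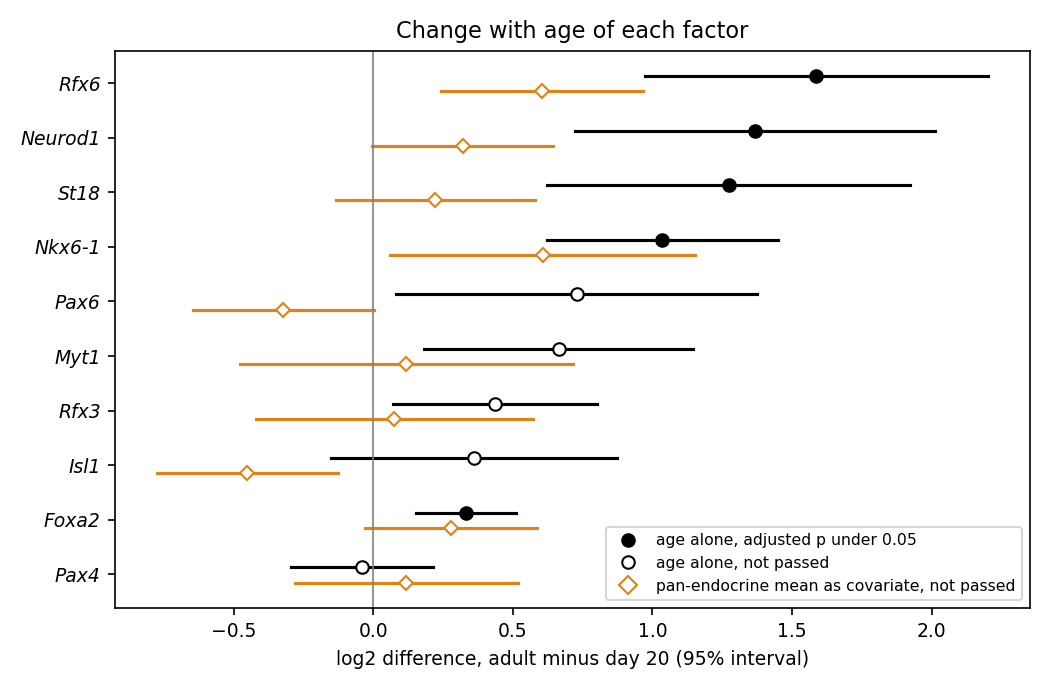
Points give the log2 difference, adult minus day 20, of each of the 10 factors with its 95% interval, from the fit with age alone (black, filled where the adjusted p was under 0.05) and from the fit with the mean of 12 pan-endocrine genes as a covariate (orange). Differences with age alone run from -0.040 for Pax4 to 1.59 for Rfx6, and with the covariate those of Isl1 and Pax6 lie below 0.

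Within an age the same arrays were often highest or lowest for several of the factors, which is given as a description with no test. Among the adult arrays replicate 1 was highest for 9 of the 10, Pax4 being the exception, and for 38.4% of all genes. Among the day 20 arrays replicate 3 was highest for 8 (37.4% of all genes) and replicate 2 lowest for 8 (32.9%). All of these held together for 7 factors and for 9.11% of all genes, the 7 being Neurod1, Rfx6, Rfx3, Isl1, Pax6, Foxa2 and St18. The pan-endocrine mean had the same highest and lowest arrays, at 11.24, 10.55 and 10.73 in adult replicates 1 to 3 and 9.95, 9.39 and 10.40 in day 20 replicates 1 to 3, and none of the 10 factors is in it. Nkx6-1 differed in that its highest day 20 array was replicate 1, and Myt1 in that its lowest was replicate 1. The range within day 20 was 1.19 for Neurod1 and 1.18 for Pax6, against 0.081 for Foxa2 and 0.089 for Rfx3. As the root-mean-square distance between profiles centred on their mean over the 6 arrays, Pax6 was nearest to the pan-endocrine mean (0.12), followed by St18 (0.20) and Neurod1 (0.23), with Foxa2 at 0.45 and Pax4 at 0.65.

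**Figure D3:**
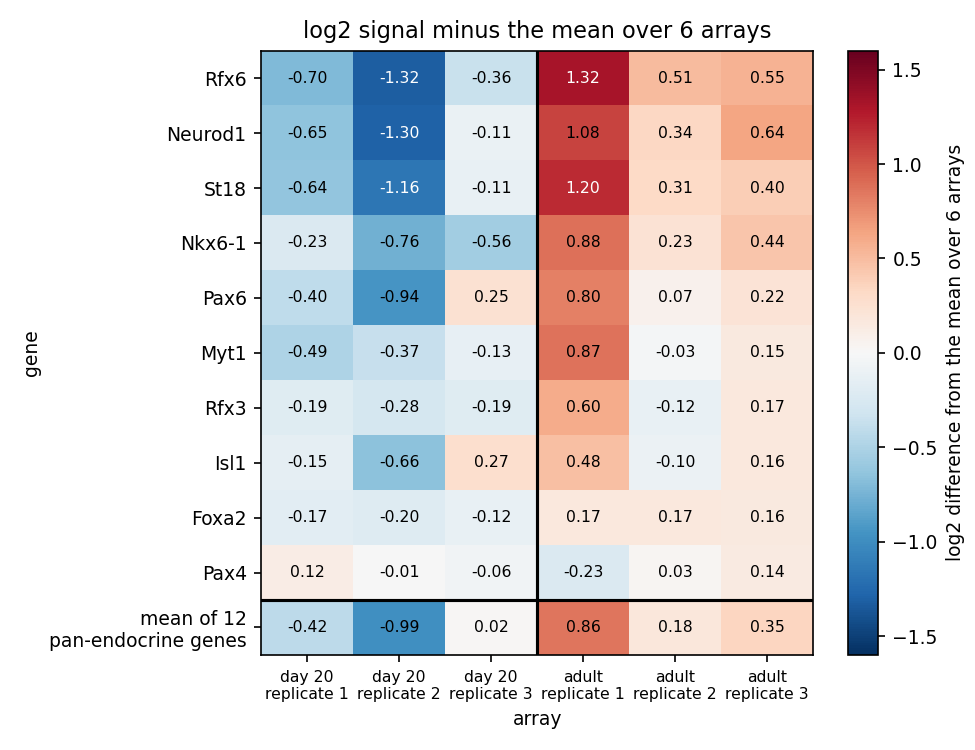
Each cell gives the log2 signal of a factor on an array minus its mean over the 6 arrays, with the day 20 arrays on the left, the adult arrays on the right and the mean of 12 pan-endocrine genes in the bottom row. Adult replicate 1 is the highest adult array in every row except that of Pax4, and Foxa2 varies least within an age.

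The pan-endocrine mean itself was higher in adult (10.84 ± 0.35 against 9.92 ± 0.51, n = 3), by 0.92 on the log2 scale. Fitted beside age as a covariate, it left 0 of the 10 factors past the threshold by limma (3 had an unadjusted p under 0.05), and 5.33% of all genes. Rfx6 had then a difference of 0.60 (95% interval 0.24 to 0.97, unadjusted p = 0.00423, adjusted p = 0.064), and Nkx6-1 one of 0.61 (0.061 to 1.15, unadjusted p = 0.0329, adjusted p = 0.202). Isl1 was the third of the 3, in the other direction, at -0.45 (-0.77 to -0.13, unadjusted p = 0.0118, adjusted p = 0.114), and Pax6 turned to -0.32 (-0.65 to 0.0030). Neurod1 came to 0.32 (-0.0030 to 0.64) and St18 to 0.22 (-0.13 to 0.58), while Foxa2 stayed at 0.28 (-0.028 to 0.59, adjusted p = 0.302). The 12 genes may themselves change within beta cells, so their mean is not a measure of endocrine cell share alone. Set against the pan-endocrine mean within each array, Rfx6 was higher in adult by 0.67, Neurod1 by 0.45 and St18 by 0.35, and Isl1 lower by 0.56 (log2 change of -0.56) and Pax6 by 0.19 (-0.19), each without overlap (exact two-sided permutation p = 0.10, the smallest possible, adjusted p = 0.163). That made 5 of 9 factors without overlap, Pax4 being left aside for its low signal, against 69.0% of all genes set against the same mean. The others overlapped, with log2 changes of 0.11 for Nkx6-1, -0.59 for Foxa2, -0.49 for Rfx3 and -0.26 for Myt1. These differed from the covariate fit, in size for Nkx6-1 (0.61 there) and in sign for Foxa2 (0.28), Rfx3 (0.076) and Myt1 (0.12).

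The genes whose profiles over the 6 arrays were nearest to each factor, taken from genes whose mean log2 signal was 7 or more, were found by the same distance. Nearest to Rfx6 were Cpe (0.036), the granule carboxypeptidase and 1 of the 12 pan-endocrine genes, Fam151a (0.051) and Tmem130 (0.091). Neurod1 was nearest to Slc30a8, the zinc transporter of insulin granules (0.095), Cnih2 (0.10) and Slc29a4 (0.11). Nkx6-1 lay nearest to Tm4sf4 (0.085), Adra2a, an adrenergic receptor (0.13), and the potassium channel Kcnb2 (0.13). St18 had Coro2b (0.055), Insrr (0.075) and Prnp (0.089) next to it. For Pax6 the nearest were Rgs17, Dpp6 and Maob, for Isl1 Celf3, Vwa5b2 and Fxyd6, for Foxa2 Ppil2, Rnf2 and Stxbp5, for Myt1 Nmt2, Lnpep and Daam1, for Rfx3 Zfp608, Wnk1 and Ncald, and for Pax4 Ccr10, Col11a2 and Mknk2, at distances of 0.022 to 0.10. These distances describe 6 arrays and carry no test. They are not scaled, so genes that vary little over the arrays, such as Pax4 and Foxa2, lie close to other such genes. For Pax4 they also rest on a signal not shown to be above background.

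Genes related to the factors were read from lists in the same fit. Of 55 other transcription factors listed, of islet and pancreas or relatives of the members, 38 were measured. Among these 4 were higher and 8 lower in adult, against 11.8% and 10.9% of all genes, with a median log2 difference of -0.011. Mlxipl, the glucose-responsive factor ChREBP, was 0.86 higher (adjusted p = 0.0182, lost without day 20 replicate 2, 0.0628), and Zbtb20 0.66 higher (adjusted p = 0.0208, lost without day 20 replicate 1 or 2, up to 0.0767). Etv1 fell by 1.62 (adjusted p = 0.0117), and Hhex, a factor of delta cells, by 0.58 (adjusted p = 0.00575). The exocrine factors Nr5a2 and Ptf1a fell by 0.46 and 0.49 (adjusted p = 0.0102 and 0.0294), Ptf1a losing its call without any 1 of the 3 day 20 arrays (up to 0.0972). Without day 20 replicate 2 the counts came to 1 higher and 4 lower, and without day 20 replicate 3 to 4 and 5. With the pan-endocrine covariate they came to 0 and 2, where 5.33% of all genes passed in either direction.

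Partners of the factors were mostly without a call, as were all genes, of which 22.7% passed in the same test. Among 9 measured bHLH partners and antagonists of Neurod1, Id1, an inhibitor that traps E proteins, fell by 1.15 (adjusted p = 0.000214) and its relative Id2 rose by 0.55 (adjusted p = 0.00718), both in every leave-out fit, while 7 including Hes1 (difference of -0.036) did not pass. Of 10 LIM domain cofactors of Isl1, Ssbp3, a stabiliser of the Ldb1 complex, rose by 0.53 (adjusted p = 0.0021). Lmo4, a LIM-only protein that competes for Ldb1, fell by 0.56 (adjusted p = 0.00493), and Ldb2 and Rnf40 were the others lower, with Ldb2 (log2 difference -0.72, adjusted p = 0.0238) losing its call when replicate 1 or 3 of either age was left out (up to 0.093). With 1 array left out 1 to 2 genes of this list were lower. Without replicate 2 of either age it was 2, Lmo4 and Ldb2, and without adult replicate 3 it was 1, Lmo4. Rnf40 thus lost its call in each of these fits. Of 10 Groucho, Sin3 and associated corepressors only Rcor2 passed (0.35, adjusted p = 0.0297), and it did so in 1 of the 6 leave-out fits, that without day 20 replicate 3. The brightest of that list, Tle5 and Hdac2, had differences of 0.12 and 0.11.

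Genes listed as activated targets of islet factors were mostly higher in adult. Of 25 measured, 19 were higher and 0 lower in limma's test (22 and 1 at an unadjusted p under 0.05), with a median difference of 1.05, against 11.8% of all genes called higher. Glp1r, the GLP-1 receptor, and Slc2a2, the glucose transporter GLUT2, led with differences of 2.22 and 1.54 (adjusted p = 0.00121 and 0.00357), both held in all 6 leave-out fits, while Ins1 and Ins2, near the top of the scale, did not pass (0.32 and 0.21). The count was 13 to 20 with an array left out, with 13 without day 20 replicate 2. With the pan-endocrine covariate 1 gene was higher and 1 lower, against 5.33% of all genes called in either direction. Chga, Pcsk2 and Ptprn of this list belong to that mean.

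Genes that beta cells keep low were called lower in 6 of 15 cases and higher in 0 by limma (8 and 1 at an unadjusted p under 0.05), against 10.9% of all genes called lower. Pyy and Ppy, hormones of PP cells, fell by 2.25 and 2.08 (adjusted p = 0.000551 and 0.000138), and Sst, the hormone of delta cells, by 0.88 (adjusted p = 0.00163). Gcg, the glucagon gene of alpha cells, had a difference of -0.73 that did not pass (adjusted p = 0.0724). With the covariate 5 of the 15 were called lower, against 5.33% of all genes called in either direction. Of 28 genes of cilia, whose promoters RFX factors bind, 7 were higher and 1 lower, with a median of 0.23, against 11.8% of all genes called higher. The counts came to 1 higher and 0 lower with the covariate (median 0.13), and to 2 and 0 without adult replicate 1 and day 20 replicate 2 together. Ift52, of the intraflagellar transport complex, rose by 0.80 (adjusted p = 0.000633), Tmem67 was 0.62 higher (adjusted p = 0.0192, lost without day 20 replicate 1 or 2, up to 0.0762), and Arl3 was the 1 lower (-0.31, adjusted p = 0.0306, passing in 1 leave-out fit, that without day 20 replicate 3).

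**Figure D4:**
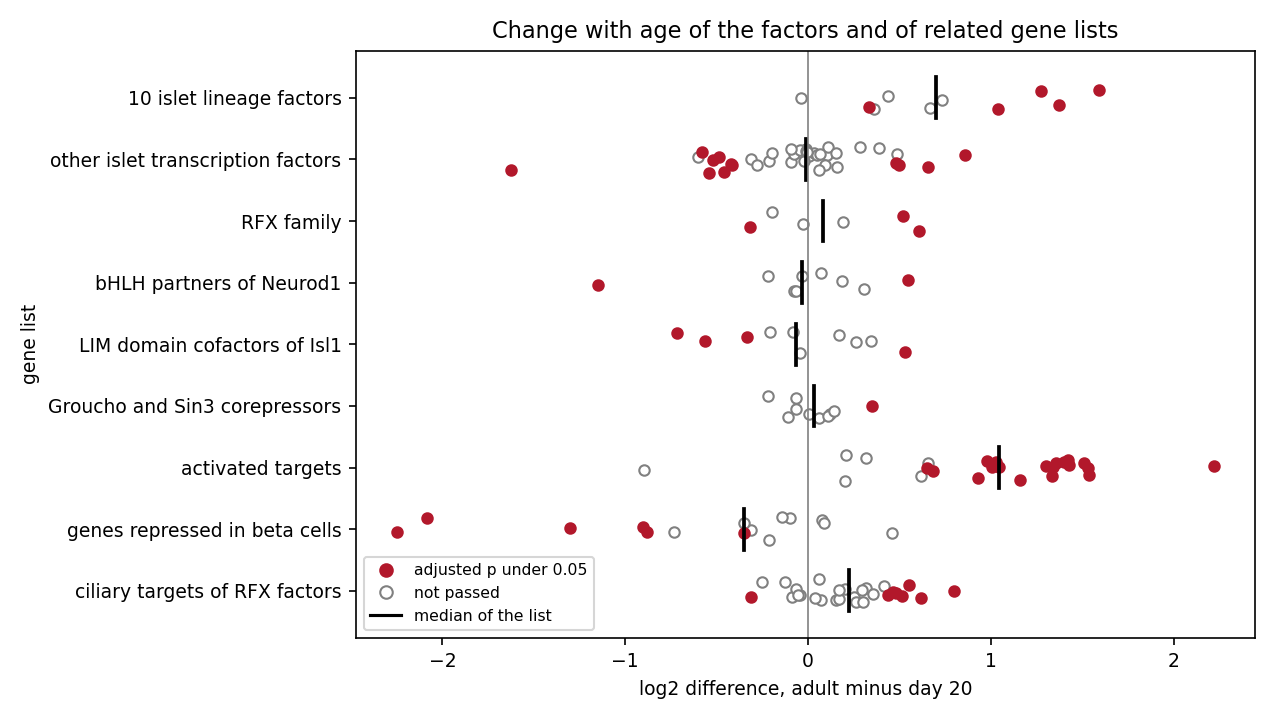
Each point is the log2 difference, adult minus day 20, of a measured gene of the list named on the vertical axis, filled where the adjusted p was under 0.05, and the black bars are the lists' medians. The 10 factors have a median of 0.70 and the activated targets one of 1.05, while the other islet transcription factors and the partner lists centre near 0. The list of other islet transcription factors includes relatives of the 10 factors with low signal.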

How the data were processed

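Each of the 6 arrays held RNA of 1 preparation, and ages and replicate numbers were taken from the sample titles. The authors deposited log2 signals per probe set made with RMA, per the submitters' processing notes, which corrects background, equalises the arrays' distributions and can compress differences at both ends of the scale. The log2 scale was read from the values. The sources used here do not state the software version, annotation or genome build. Of 29214 probe sets 15310 had 1 gene symbol, updated in RefSeq's gene table by Entrez gene identifier for 15279 and by accession for 6 and kept as annotated for 25, which gave 14506 genes. The brightest probe set over all arrays stood for each of the 527 genes that had more than 1.

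Adult was compared with day 20 by limma 3.58.1 in R 4.3.3 (lmFit, eBayes, two-sided, Benjamini-Hochberg over 14506 genes, threshold 0.05), a fit checked on simulated data. P-values measure the spread between preparations, which the titles call biological replicates. Differences within arrays were tested by exact permutation over arrays and adjusted over 13 differences, among them 2 that involve Pax4 and are not reported, because its signal is not shown to be above background. Tables and plots were made in Python 3.11.15 with pandas 2.3.3, numpy 2.4.6 and matplotlib 3.10.9. Named genes were the members, measured genes of their families, the 2 largest rises, 2 largest falls and 2 brightest genes of each list and the 3 genes nearest in profile, and other names were given to complete small counts. The members, lists and alternatives were chosen with earlier results of these data known.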

Additional observations from a re-analysis of the deposited data

How the results depend on the processing

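Alternatives were a second quantile normalization, median centring, removal of the lower 33.3% of genes by signal, eBayes with trend and robust, probe sets averaged per gene, every probe set tested, array weights, the replicate number as a block, the pan-endocrine mean as a covariate, and arrays left out. With the covariate 307 genes were higher and 466 lower in adult, against 1718 and 1576 without it, and 0 of the 10 factors passed. Isl1, Pax6 and Pax4 then changed sign, to -0.45, -0.32 and 0.12. Without adult replicate 1 and day 20 replicate 2 together 937 genes were higher and 924 lower, Isl1 was -0.029 and Pax4 0.049, and Foxa2 lost its call (adjusted p = 0.0957). With 1 array left out, 1065 to 1591 genes were higher, with 1065 without day 20 replicate 1 and 1083 without day 20 replicate 2, 1076 to 1334 lower, and 4 to 6 factors passed. Pax4, whose signal is low, ranged from -0.12 to 0.062 over these fits and also turned positive with array weights (0.047), without adult replicate 1 (0.062) and without day 20 replicate 1 (0.0122), and without day 20 replicate 3 the change of Nkx6-1 against the pan-endocrine mean was -0.15, against up to 0.25 in the other fits with 1 array left out. The cause of these shifts was not tested. Between arrays of the same replicate number, correlations of deviations from the age means were -0.187, 0.194 and -0.211. With 3 arrays per age these deviations constrain each other, so they cannot decide whether the replicate numbers pair the samples. With the replicate block 1384 genes were higher and 1225 lower, and 4 factors passed, Foxa2 being lost (adjusted p = 0.0535). The other settings kept the 5 calls, and 4 of them added Myt1, as given above.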
